A study of Homo sapiens with 6 samples.

Results

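A rule that holds no measured value named the genes described here, though earlier results of these data were known when the genes were chosen. They were 9 targets of the androgen receptor: *FKBP5*, *PIP*, *AZGP1*, *TMPRSS2*, *KLK2*, *KLK3*, *HPGD*, *ALCAM* and *ZBTB16*. Of these, 7 had a row among the 22807 genes of the deposited table, and the expression of *KLK2* and *ZBTB16* was not analysed here. RNA of MDA-MB-453, a HER2+ breast cancer line kept in culture, was sequenced in 6 libraries, 3 labelled DUSP6 Knockdown (genotype DUSP6 KD) and 3 labelled Scrambled (genotype WT). *DUSP6* encodes a phosphatase that inactivates the kinase ERK. All cells were grown in RPMI with fetal bovine serum and antibiotics, and the labels name no androgen, drug or time after transfection. According to the legend of the study, different siRNAs were used within each group, and the labels do not tell which library received which one. All values come from 1 cell line, and p-values measure the spread between these 6 libraries. Values are given in the order of replicates 1, 2 and 3 of each group.

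The androgen receptor is a transcription factor held in the cytoplasm by a chaperone complex around HSP90. On binding an androgen it enters the nucleus, docks on DNA elements that pioneer factors such as FOXA1 have opened, and recruits coactivators or corepressors. It is best known from prostate, but MDA-MB-453 cells belong to the apocrine, or luminal androgen receptor, type of breast cancer, which has the androgen receptor and lacks the estrogen receptor. The members differ in what they make. *FKBP5* encodes a co-chaperone of the receptor complexes themselves. *AZGP1*, *PIP*, *KLK2* and *KLK3* encode secreted proteins, of which *PIP* (GCDFP-15) is a classical apocrine marker and *KLK3* is prostate-specific antigen. *TMPRSS2* encodes a serine protease of the cell surface, *HPGD* the enzyme that begins prostaglandin breakdown, *ALCAM* the adhesion molecule CD166, and *ZBTB16* a zinc finger repressor.

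The receptor binds to inverted repeats of the hexamer AGAACA. RefSeq windows on GRCh38.p14 that run from 250 bases before to 50 bases after a start were at hand for 7 of the 9 members, in 9 windows. They are shown, with a single window per gene, for *FKBP5*, *AZGP1*, *PIP* and *ALCAM*, which had measurable expression and a window. They run from 5′ to 3′ on the strand of the gene. The stretch next to each start can thus be set beside the changes given further down. Capitals mark the hexamer AGAACA where it or its reverse complement occurred.

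FKBP5 (chr6:35728534-35728833, minus strand): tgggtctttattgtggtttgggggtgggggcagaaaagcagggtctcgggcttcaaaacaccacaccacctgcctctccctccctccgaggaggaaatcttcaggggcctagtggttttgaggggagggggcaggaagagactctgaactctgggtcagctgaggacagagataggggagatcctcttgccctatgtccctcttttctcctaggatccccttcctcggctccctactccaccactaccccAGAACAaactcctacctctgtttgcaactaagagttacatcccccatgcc
AZGP1 (chr7:99975982-99976281, minus strand): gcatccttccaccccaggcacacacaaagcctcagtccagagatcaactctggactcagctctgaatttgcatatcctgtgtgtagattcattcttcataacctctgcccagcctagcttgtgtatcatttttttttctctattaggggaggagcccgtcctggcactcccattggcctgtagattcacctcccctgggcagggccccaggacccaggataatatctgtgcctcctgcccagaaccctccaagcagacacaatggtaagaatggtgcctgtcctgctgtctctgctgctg
PIP (chr7:143131827-143132126, plus strand): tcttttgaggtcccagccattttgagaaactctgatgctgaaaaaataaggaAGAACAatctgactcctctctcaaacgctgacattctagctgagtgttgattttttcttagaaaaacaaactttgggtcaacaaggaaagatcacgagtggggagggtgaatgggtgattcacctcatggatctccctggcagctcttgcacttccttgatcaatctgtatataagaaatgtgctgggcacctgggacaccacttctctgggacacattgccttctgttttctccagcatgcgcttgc
ALCAM (chr3:105366659-105366958, plus strand): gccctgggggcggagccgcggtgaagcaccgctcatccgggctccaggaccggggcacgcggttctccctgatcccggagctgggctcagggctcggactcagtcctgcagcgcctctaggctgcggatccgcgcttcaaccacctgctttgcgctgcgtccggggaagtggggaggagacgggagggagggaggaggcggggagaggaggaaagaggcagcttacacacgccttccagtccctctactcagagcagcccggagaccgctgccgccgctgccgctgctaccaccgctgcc

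The hexamer lay at the first base of the transcript in the *FKBP5* window shown and 198 bases before the start of *PIP*, while the *AZGP1* and *ALCAM* windows held none. A second *FKBP5* start, with a window at chr6:35688866-35689165 on the minus strand, held none either. Among all 35116 windows of the same length, 14.8% held AGAACA on either strand. The full repeat, AGAACA and TGTTCT with 3 free bases between them, which includes the hexamer, was found in 1 window of all and in none of a member. The windows differed in base composition, with 70.0% G and C in *ALCAM*, 52.7% in *AZGP1* and 45.0% in *PIP*, against a median of 58.7% over all windows. The forkhead motif TGTTTAC, searched on both strands, was in 3.42% of all windows and in no window of a member.

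The 2 kallikrein genes carried a match to a looser element, GNACA and GTNC with 4 free bases between them (N being any base), searched on both strands, which 2.19% of all windows held and which can overlap the hexamer. These stretches are shown because the match sat at a like distance from both starts, 169 bases before that of *KLK3* and 175 bases before that of *KLK2*. Capitals mark the looser element.

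KLK3 (chr19:50854726-50854778, plus strand): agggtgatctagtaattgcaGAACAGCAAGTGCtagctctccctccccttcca
KLK2 (chr19:50873244-50873296, plus strand): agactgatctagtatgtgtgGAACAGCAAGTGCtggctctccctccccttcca

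Over the stretches shown, 46 of 53 bases were identical, and over the whole windows 245 of 309 aligned positions (79.3%). The hexamer AGAACA overlapped the element in *KLK3*, beginning 170 bases before the start. A letter match does not show that a receptor binds there.

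The depth of the libraries was 45546981 to 85729785 reads, recovered from the deposited values. A normalized value is a number of reads relative to the library size after TMM scaling, and 1 read corresponded to 0.0121 to 0.0202. The scaling factors moved with the groups, at 0.881 to 0.968 with scrambled siRNA and 1.08 to 1.09 with *DUSP6* siRNA. *DUSP6* itself had values of 209, 110 and 114 in the scrambled libraries and of 39.4, 24.5 and 35.2 in the knockdown libraries. All 6 luminal markers reported were present in every library, but 5 of them (*ERBB2*, *FOXA1*, *GATA3*, *KRT8* and *KRT18*) were lower with *DUSP6* siRNA and *EPCAM* was not called, with a median log2 fold change of -0.61. Their summed level was 3037 to 4077 with scrambled siRNA and 2279 to 2446 with *DUSP6* siRNA, and *ERBB2* was at 882 to 1068 and 457 to 520. The part of this shift in the members' results was not tested. Of the 7 measured markers of other cell types, 6 stayed at or below 0.920 in all libraries, among them *ESR1*, *VIM* and *PTPRC*. The seventh was *COL1A1*, which alone set the summed level of the list at 81.9 to 106 with scrambled siRNA and 163 to 194 with *DUSP6* siRNA, and whose part was likewise not tested.

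Of the members, 5 gave more than a few reads, and 4 of these were past the expression filter of a mean value of 1 and entered the test. With *DUSP6* siRNA, *AZGP1*, *FKBP5* and *TMPRSS2* were lower and *ALCAM* was higher, each at an adjusted p under 0.05 in limma over all 12862 genes tested. *PIP*, which was just under the filter, also had lower values. Many genes changed between these libraries: 24.7% of all tested genes were lower and 19.7% were higher (44.5% in either direction), and the groups did not overlap in 57.8%, with the knockdown libraries below in 31.1% and above in 26.7%. The median log2 fold change was -0.81 over the 4 members and -0.01 over all tested genes, whose quartiles were -0.32 and 0.27. With 3 of 4 members lower and 1 higher, the counts are a description beside this background and were not tested against it. Fewer cells with a transcript and less RNA per cell cannot be told apart in such data.

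*AZGP1* (gene 563, chr7:99966730-99976031), which encodes zinc-alpha-2-glycoprotein, a secreted protein linked to lipid mobilization, had the largest change of the tested members. Its normalized values were 425, 583 and 388 in the scrambled libraries and 148, 120 and 138 in the knockdown libraries. The groups lay far apart, and the lowest scrambled library was well above the highest knockdown library. The mean fell from 466 ± 103 to 135 ± 14.0 (SD, n = 3 each), which is 71.0% lower. On the log2(value + 1) scale the fold change was -1.76 (standard error 0.15, 95% confidence interval -2.10 to -1.41, limma adjusted p = 4.91e-05). Only 0.708% of all tested genes had a fold change as low or lower. It was also an abundant transcript, since its scrambled level was above that of 98.3% of tested genes and rested on 28586 to 32224 reads per library.

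*FKBP5* (gene 2289, chr6:35573590-35728583) had knockdown values that lay close together. Its values were 90.6, 73.3 and 74.7 in the scrambled libraries and 40.9, 38.6 and 38.8 in the knockdown libraries. The knockdown libraries were almost equal to one another and all lay below the scrambled ones. The mean fell from 79.5 ± 9.63 to 39.4 ± 1.25 (SD, n = 3 each), 50.4% lower. The log2 fold change was -0.99 (standard error 0.10, 95% confidence interval -1.22 to -0.75, limma adjusted p = 1.45e-04), and 4.32% of tested genes had one as low or lower. Each value rested on at least 2022 reads.

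*TMPRSS2* (gene 7113, chr21:41464305-41508158) had the smallest decrease of the tested members. The scrambled libraries gave 16.2, 20.9 and 17.2, and the knockdown libraries gave 12.0, 9.05 and 13.4. The groups did not overlap, but the gap between them was narrow. The mean fell from 18.1 ± 2.49 to 11.5 ± 2.22 (SD, n = 3 each), 36.6% lower, with a log2 fold change of -0.62 (standard error 0.16, 95% confidence interval -0.98 to -0.27, limma adjusted p = 0.0112). When the TMM factors were removed from the values, the log2 fold change was -0.41 and the adjusted p was 0.0640. The median of all tested genes moved with it, from -0.014 to 0.197. Relative to that median *TMPRSS2* was at -0.61 with and without the factors. This was fixed in advance, because such a factor shifts all genes of a library nearly alike, and says nothing about the lost call. Of the exon sequence of *TMPRSS2*, 4.14% overlapped exons of *MX1*, an interferon-induced gene on the other strand, whose mean value was 0.571 ± 0.157 with scrambled siRNA and 2.66 ± 0.354 with *DUSP6* siRNA.

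*PIP* (gene 5304, chr7:143132077-143139739) was low in these cells. Its values were 1.28, 1.42 and 1.05 in the scrambled libraries and 0.647, 0.563 and 0.695 in the knockdown libraries, from 74 to 87 and 32 to 46 reads. All knockdown libraries were below all scrambled libraries. The mean went from 1.25 ± 0.187 to 0.635 ± 0.0672 (SD, n = 3 each), 49.1% lower, and the mean of log2(value + 1) differed by -0.46. As its mean over the 6 libraries was 0.942, it was not tested with the other genes. With no filter, limma gave an adjusted p of 0.00675, where 14.0% of all 22807 genes were called lower. edgeR on the recovered reads with no filter gave a log2 fold change of -0.97 and an adjusted p of 0.00504, where 15.7% were called lower. The log2(value + 1) scale understates the change of such a low gene.

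*ALCAM* (gene 214, chr3:105366909-105576900) went the other way. The values were 202, 201 and 142 in the scrambled libraries and 242, 301 and 241 in the knockdown libraries. All knockdown libraries were above all scrambled libraries, with 1 low library in the scrambled group and 1 high library in the knockdown group. The mean rose from 182 ± 34.6 to 262 ± 34.4 (SD, n = 3 each), 43.9% higher, with a log2 fold change of 0.53 (standard error 0.15, 95% confidence interval 0.19 to 0.88, limma adjusted p = 0.0199). Without *DUSP6* siRNA replicate 2, the highest library, the fold change was 0.43 and the adjusted p was 0.0925.

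**Figure D1:**
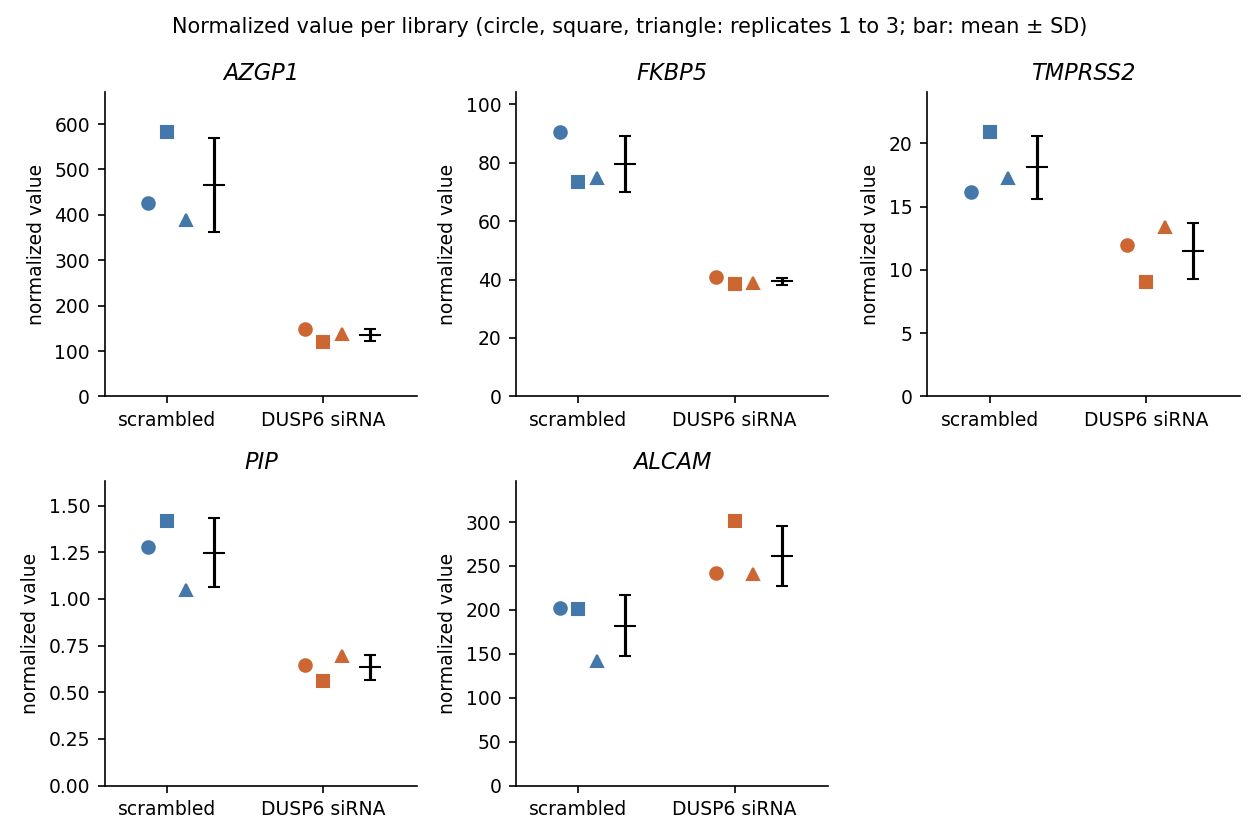
Normalized value (linear axis from 0) of the 5 measurable members in each of the 6 libraries, with circles, squares and triangles for replicates 1 to 3 and black bars for the mean ± SD of each group. AZGP1, FKBP5, TMPRSS2 and PIP were lower in all 3 DUSP6 siRNA libraries than in all 3 scrambled siRNA libraries, and ALCAM was higher.

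*DUSP6* siRNA replicate 2 had the lowest value of *AZGP1*, *FKBP5*, *TMPRSS2* and *PIP* and the highest of *ALCAM*, and also the lowest value of *DUSP6*. For *FKBP5* the margin was slight (38.6 against 38.8). Over the whole table, too, its reads differed more from replicates 1 and 3 (mean chi-square per gene 25.1 and 26.8) than these did from each other (6.87). This measure grows with depth, and scrambled libraries differed by 70.4 to 212. A relation to the level of *DUSP6* was not tested. An exact two-sided permutation test of 3 against 3 libraries cannot go below p = 0.1, and each of these 5 members reached that limit.

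The kallikrein *KLK3* (gene 354, chr19:50854915-50860764) had 0 reads in all scrambled libraries and 1 read in *DUSP6* siRNA replicate 2 alone. *HPGD* (gene 3248, chr4:174490175-174522893) had 0, 0 and 1 read with scrambled siRNA and 0, 1 and 1 read with *DUSP6* siRNA. Both were at or below the value of 3 reads, which was 0.0362 to 0.0607 by library, so no difference was detectable at this depth. *KLK3* also has close paralogs, and reads from them could be split. A floor of this kind covers counting error only.

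Set per kilobase of the MANE Select transcript in GENCODE v44, the levels of the members spanned a wide range. With scrambled siRNA the mean normalized value per kilobase was 394 ± 87.6 for *AZGP1*, 38.7 ± 7.36 for *ALCAM*, 21.2 ± 2.57 for *FKBP5*, 5.25 ± 0.721 for *TMPRSS2* and 2.16 ± 0.323 for *PIP* (SD, n = 3 each). Among these 5, no neighbours in the order overlapped in their library values. With *DUSP6* siRNA the order was the same, at 114 ± 11.8, 55.6 ± 7.31, 10.5 ± 0.333, 3.33 ± 0.645 and 1.10 ± 0.116. The distance from *AZGP1* to *ALCAM* was smaller than with scrambled siRNA.

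**Figure D2:**
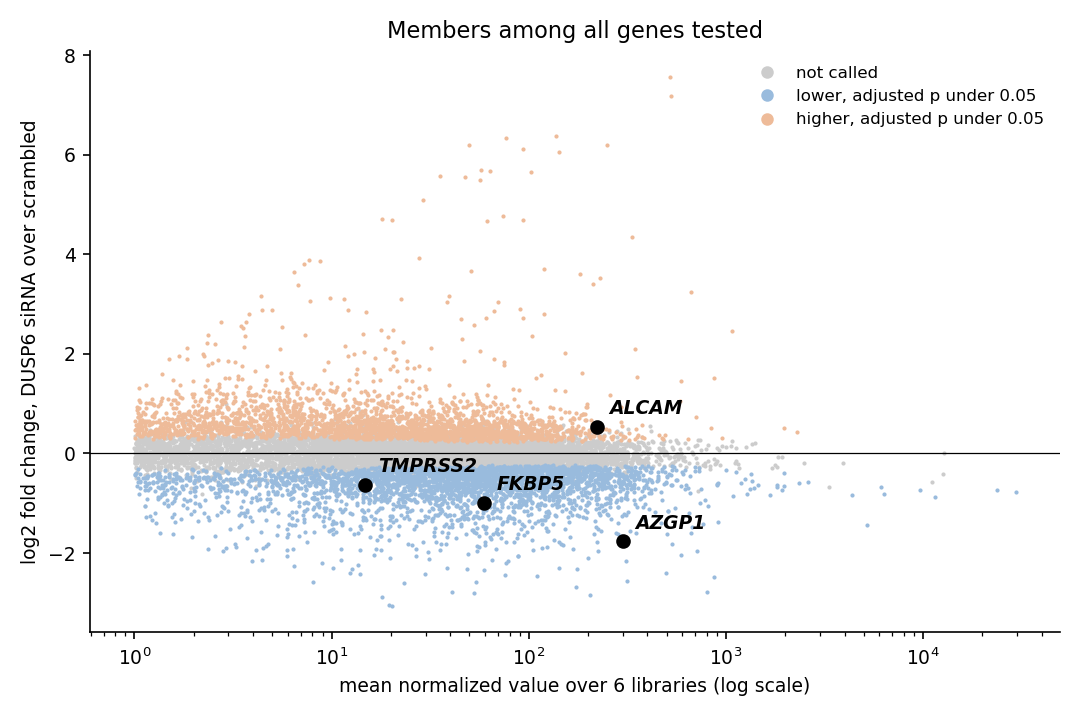
Log2 fold change (DUSP6 siRNA over scrambled siRNA) against the mean normalized value over 6 libraries (log axis) for the 12862 genes tested, with the 4 tested members as black points, blue for genes called lower, orange for genes called higher and grey for the rest. AZGP1 sits at -1.76 near the lower edge of the cloud, while TMPRSS2 at -0.62, FKBP5 at -0.99 and ALCAM at 0.53 lie within it.

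*FOXA1*, which encodes the pioneer factor of receptor binding sites, fell. Its values were 569, 611 and 412 with scrambled siRNA and 316, 283 and 308 with *DUSP6* siRNA, and it fell by 0.79 on the log2 scale (adjusted p in limma 0.00237). It belongs to a list of 19 genes for cofactors and chaperones of the receptor, of which 18 were tested. Of these, 10 were lower (55.6%, beside 24.7% of all tested genes) and the other 8 were not called, and the median was -0.50. Decreases were steepest in the p160 coactivators *NCOA2* (mean 177 to 76.9, -1.19) and *NCOA1* (48.3 to 21.6, -1.12). The corepressor *NCOR1* was also lower (268 to 187, -0.51, adjusted p = 0.00415), so that decreases were found in coactivators and in a corepressor. *FKBP4*, the paralog of *FKBP5* in the chaperone complex, went from 426 to 345 and was not called (-0.29, adjusted p = 0.0966), but without scrambled siRNA replicate 2 it was (-0.44, adjusted p = 0.00514). Its value is uncertain, as 6.27% of its exon sequence is shared with *ITFG2-AS1*.

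**Figure D3:**
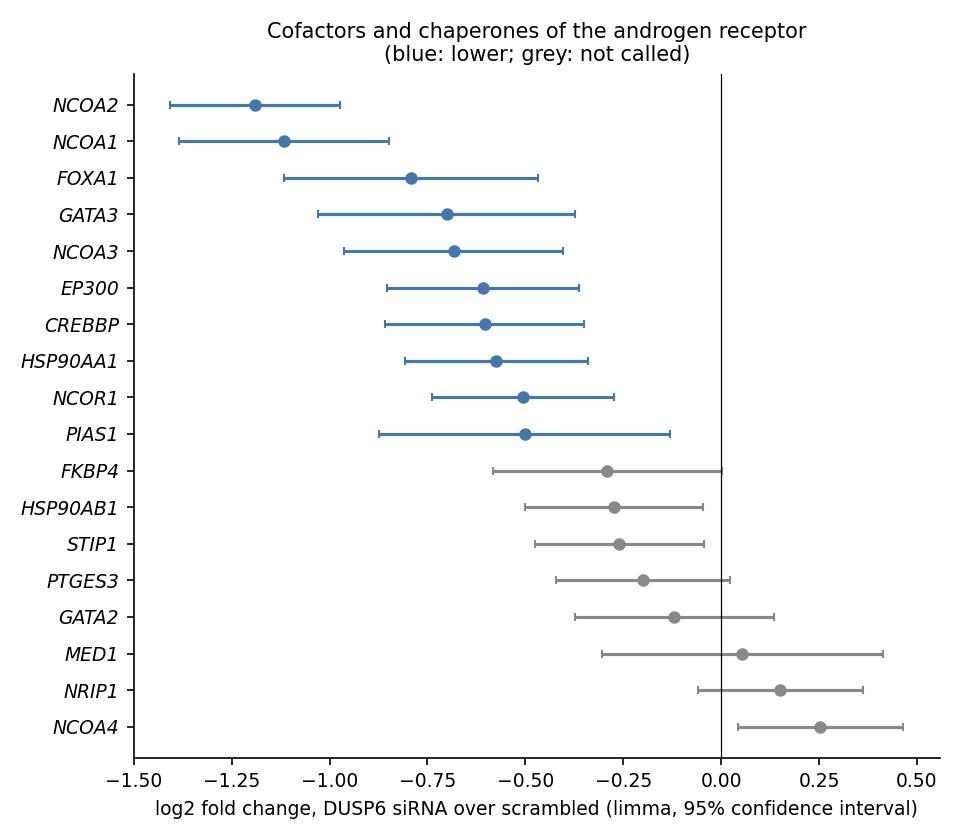
Log2 fold change (DUSP6 siRNA over scrambled siRNA) with its 95% confidence interval from limma for the 18 tested genes of the cofactor and chaperone list. The 10 genes in blue were called lower, from NCOA2 at -1.19 to PIAS1 at -0.50, and the 8 in grey were not called.

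Other genes known to respond to androgen were called in both directions, more of them lower. Of 35 listed genes, 28 were tested, and 14 of these were lower, 7 were higher and 7 were not called, with a median of -0.27. Among all tested genes, 24.7% were lower and 19.7% were higher, and the list was not tested against these shares. *SLC45A3*, which encodes prostein, a transporter known from prostate, went from 53.0 to 14.6 (-1.78). *SPDEF*, an ETS factor of luminal epithelium, went from 319 to 153 (-1.05). *SELENOP*, which encodes the selenium transport protein, was also lower (-1.35), but shares 70.6% of its exon sequence with *CCDC152* and is uncertain. The largest increases were in the sulfate transporter gene *SLC26A2* (0.366 to 1.77, 1.03), the fatty acid elongase gene *ELOVL7* (0.89) and the receptor gene *LIFR* (0.993 to 2.45, 0.77). *SLC26A2* and *LIFR* had scrambled means under 1 and passed the filter only through the knockdown libraries. Their entry into the counts thus rests on the group in which they were high. The same happened through the scrambled libraries for *INPP4B* of this list, which was called lower (mean 2.06 to 0.654). Below, it also held for *SULT2B1* (7.89 to 0.938) and *BCAS1*. The prostate genes *STEAP1*, *STEAP4* and *TRPM8* were under the filter.

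Several members, *FKBP5* above all, also respond to the glucocorticoid receptor, which recognizes the same element. Of 10 tested genes shared between steroid receptors, 5 were lower, 1 was higher and 4 were not called, with a median of -0.35. The lower ones were led by the metallothionein *MT2A* (92.3 to 28.5, -1.60), the glutamine synthetase gene *GLUL* (149 to 47.6, -1.58) and *TSC22D3* (89.6 to 30.6, -1.51), which encodes GILZ. *DUSP1*, another MAP kinase phosphatase gene, was called higher (0.58, adjusted p = 0.0441) although its groups overlapped, and the call was lost with no filter and in most fits that left out 1 library.

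Of 4 tested genes for other steroid receptors, 2 rose and 2 were not called, with a median of 0.35. *NR3C1*, which encodes the glucocorticoid receptor, went from 150 to 238 (0.67, adjusted p = 0.00117) and *NR3C2*, which encodes the mineralocorticoid receptor, rose by 0.70 on the log2 scale (adjusted p = 0.0163, 0.0521 with no filter and 0.0764 without *DUSP6* siRNA replicate 2). *PGR*, which encodes the progesterone receptor, was low at 2.04 and 2.10 and was not called (0.03, adjusted p = 0.856). It shares 5.65% of its exon sequence with *PGR-AS1*, and its direction turned under quantile normalization and without scrambled siRNA replicate 3. Of 8 tested androgen metabolism genes, 2 were lower, 1 was higher and 5 were not called. Among all tested genes, 24.7% were lower and 19.7% were higher, and so few calls show no direction for the list. The steroid sulfatase gene *STS* went from 176 to 72.0 (-1.27), the sulfotransferase gene *SULT2B1* fell by 2.13 on the log2 scale, and *SRD5A1*, which encodes a steroid 5-alpha reductase, rose by 0.57.

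Among 13 tested secretory and apocrine genes, 9 were lower, 3 were higher and 1 was not called, with a median of -0.76. The 9 include *BCAS1* (1.43, 7.19 and 0.795 with scrambled siRNA, mean 0.329 with *DUSP6* siRNA), which passed the filter only through the scrambled libraries. *CLCA2* (-2.78), *AGR2*, which encodes a disulfide isomerase of secretory cells (-1.95), and the cytochrome gene *CYP4Z1* (-1.94) fell the most. The trefoil factor genes *TFF1* (2.09) and *TFF3* (1.20) and the dehydrogenase gene *DHRS2* (1.14) rose. Genes of this list thus moved in both directions, with 69.2% lower and 23.1% higher, beside 24.7% and 19.7% of all tested genes.

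**Figure D4:**
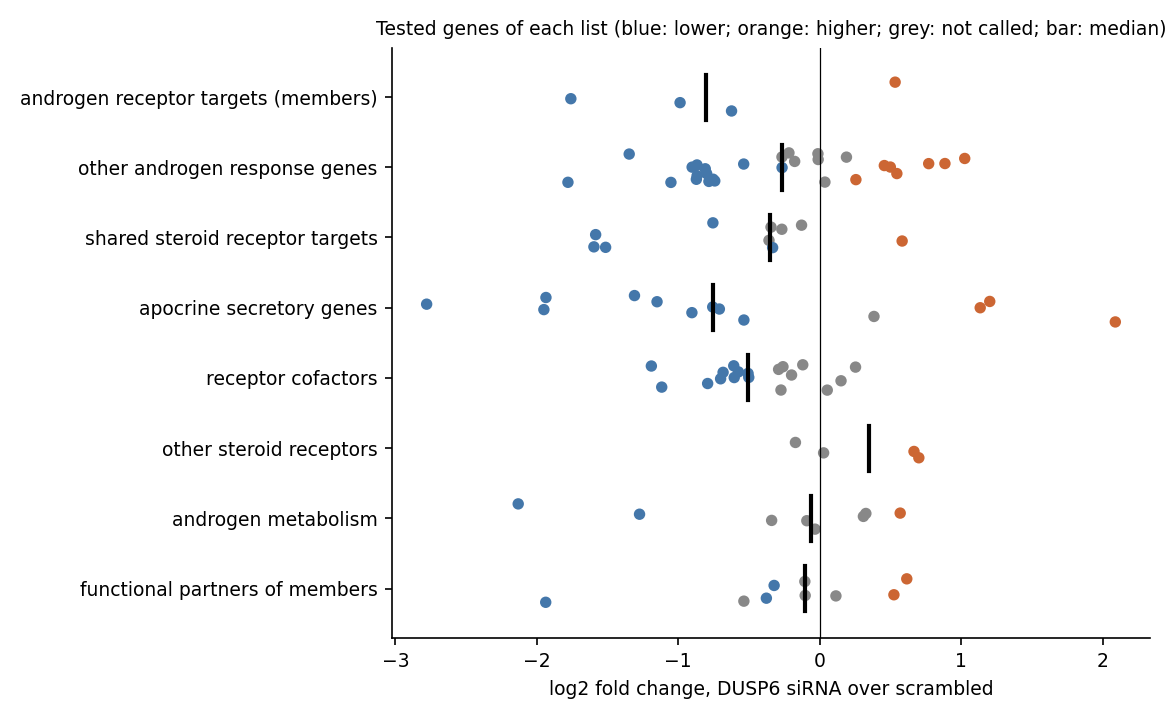
Log2 fold change (DUSP6 siRNA over scrambled siRNA) of the tested genes of each list, one point per gene, in blue for genes called lower, orange for genes called higher and grey for genes not called, with a black bar at the median. Medians were -0.81 for the members, -0.27 for other androgen response genes, -0.76 for apocrine secretory genes, -0.50 for the receptor cofactors and 0.35 for the other steroid receptors.

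Of 9 tested genes for proteins that act with the members, 3 were lower, 2 were higher and 4 were not called, with a median of -0.10. The shares were 33.3% lower and 22.2% higher, beside 24.7% and 19.7% of all tested genes. Another surface protease, *TMPRSS13*, went from 56.8 to 14.2 (-1.94), a larger fall than that of *TMPRSS2*. The calls of the protease *ST14* (-0.38) and of the protease inhibitor *SPINT1* (-0.32) were lost without the TMM factors and under quantile normalization. That of *ST14* was also lost without *DUSP6* siRNA replicate 3. That of *SPINT1* was also lost with no filter and whenever a library other than scrambled siRNA replicate 3 was left out. *PTGER4*, a receptor gene for prostaglandin E2, rose by 0.62 and *BCL6*, a zinc finger repressor of the family of *ZBTB16*, by 0.52. Of the other kallikreins, *KLK14* alone passed the filter and was not called (-0.08).

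Over all context lists, 43 of 91 tested genes were lower (47.3%) and 16 were higher (17.6%), with a median of -0.32. These lists hold genes chosen for their tie to the receptor or to apocrine cells, and the shares are given beside the background of 24.7% and 19.7% as a description. The hexamer AGAACA was in the window of 12.9% of genes called lower, 11.8% of genes called higher and 12.5% of genes not called that had a window.

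Each tested member was also set beside the genes with the most similar profile over the 6 libraries, by the root mean square difference of log2(value + 1) after centring. The closest to *FKBP5* were *ENAH*, which encodes an actin regulator (difference 0.0230), and *TOMM34*, which encodes a mitochondrial import factor (0.0313). *TMPRSS2* was closest to *FLJ42627* (0.0718) and to the angiogenic factor gene *VEGFA* (0.0730). For *ALCAM* they were the histone gene *H2BC11* (0.0161) and *BBOF1* (0.0443), and for *AZGP1* the ceramide synthesis gene *DEGS2* (0.0866) and *EPN3* (0.102). *H2BC11* (mean 2.43 to 3.84) and *BBOF1* (4.61 to 7.12) were low, and log2(value + 1) understates the changes of low genes. Their closeness to *ALCAM* thus depends in part on this scale. *BBOF1*, *DEGS2* and *EPN3* share 16.7%, 7.30% and 12.3% of their exon sequence with a neighbor and are uncertain.

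**Figure D5:**
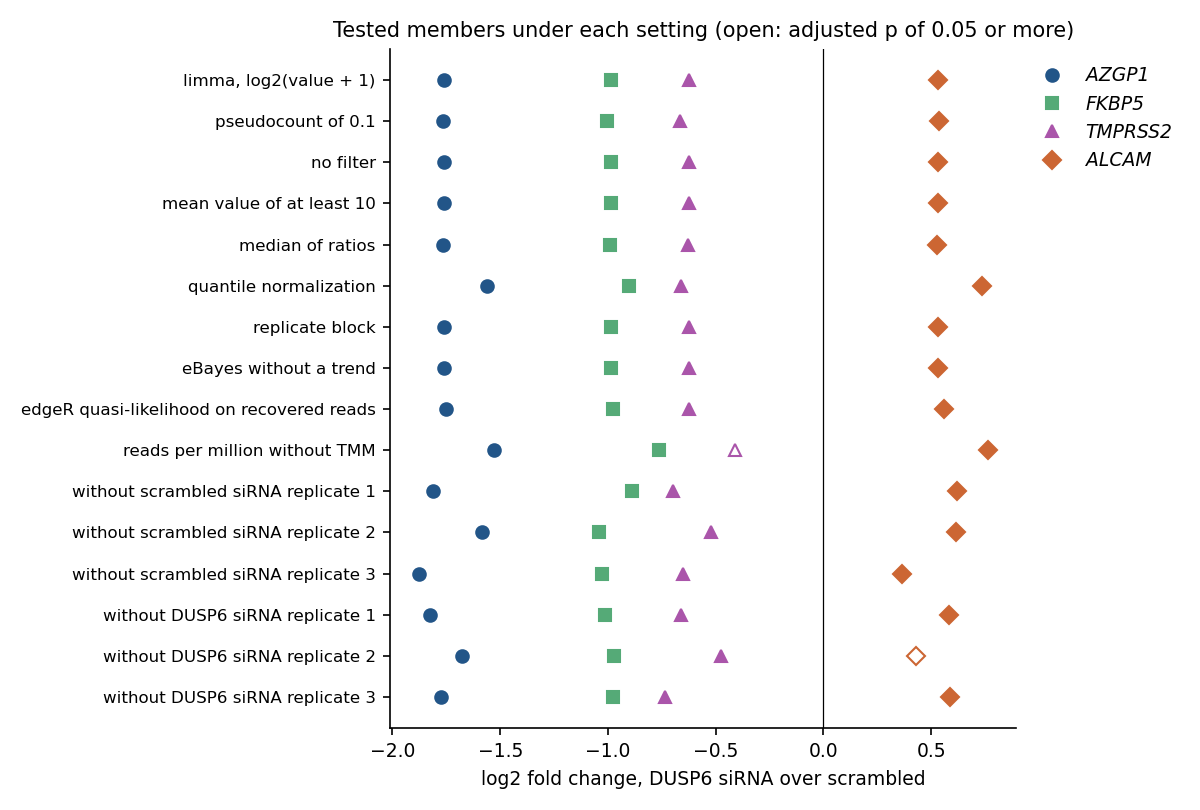
Log2 fold change of the 4 tested members under each processing setting, one line per setting, with filled symbols where the adjusted p was under 0.05 and open symbols where it was not. The direction was the same in every line, and the open symbols are TMPRSS2 without TMM at -0.41 and ALCAM without DUSP6 siRNA replicate 2 at 0.43.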

How the data were processed

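MDA-MB-453 libraries with *DUSP6* siRNA (n = 3) were compared with libraries with scrambled siRNA (n = 3). The authors mapped the reads of stranded mRNA libraries to hg38 using Rsubread and counted them over RefSeq gene models, then deposited a normalized, linear signal for each gene in each library. The methods do not name this normalization. Dividing a deposited signal by the smallest step of its library gave whole reads (100% of values within 0.01 read), and the factors in the steps equalled the TMM factors of edgeR. The counting is not stated to have used strand. Of the 22807 genes, 349 had no symbol and were kept under their gene ID.

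Signals were tested in limma 3.58.1 (R 4.3.3, with lmFit and a trended eBayes) as log2(value + 1). The 12862 genes whose mean over the 6 libraries was 1 or more entered, and a call was an adjusted p (Benjamini-Hochberg) under 0.05. On simulated data the fits were tested before use. Alternatives were a replicate block, leaving out each library, a pseudocount of 0.1, a limit of 10 in place of 1 on the mean or none, rescaling by median of ratios or by quantiles, eBayes with no trend, and edgeR 4.0.16 on the recovered reads. Plain read shares without TMM, and edgeR with no filter, were chosen after seeing the data. The genes, lists and tests were chosen with earlier results of these data known. The genes named were the members and, from each list, up to 3 called genes with the largest change in each direction, with *FOXA1*, *FKBP4*, *NCOR1*, *NR3C1*, *PGR*, and 2 genes of nearest profile per tested member. *MX1*, *ERBB2*, *EPCAM*, *GATA3*, *KRT8*, *KRT18*, *COL1A1*, *ESR1*, *VIM*, *PTPRC*, *INPP4B*, *BCAS1* and the genes given as under the filter were named besides. Gene positions and promoter windows were from RefSeq on GRCh38.p14, and a gene was called uncertain where more than 5% of its exon sequence was shared. No windows for *TMPRSS2* and *ZBTB16* were at hand. A few genes of the chosen lists are not reported here and were left out of the list counts.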

Additional observations from a re-analysis of the deposited data

How the results depend on the processing

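The direction of *AZGP1*, *FKBP5*, *TMPRSS2* and *ALCAM* was the same in every alternative run. Without leaving out a library, the log2 fold changes ranged from -1.78 to -1.53, -1.01 to -0.76, -0.66 to -0.41 and 0.53 to 0.76. *TMPRSS2* lost its call without TMM (-0.41, adjusted p = 0.0640). That scaling moved the median of all genes from -0.014 to 0.197 and the calls from 3179 lower and 2540 higher to 1800 lower and 4777 higher. Relative to the median, *TMPRSS2* was at -0.61 in both, which was fixed in advance, as these factors shift all genes of a library nearly alike. Leaving out each library gave -1.88 to -1.59 for *AZGP1*, -1.04 to -0.89 for *FKBP5*, -0.73 to -0.47 for *TMPRSS2*, 0.36 to 0.62 for *ALCAM* and -0.52 to -0.40 for *PIP*. *ALCAM* lost its call without *DUSP6* siRNA replicate 2 (0.43). The members called numbered 3 to 4 lower and 0 to 1 higher in these fits. The count of 4 includes *PIP*, which passed the filter only without *DUSP6* siRNA replicate 1 or 2 (limma adjusted p = 0.0382 and 0.0397). Its entry there rests on the scrambled libraries, in which it was high. In the table as a whole, 2309 to 3578 genes were lower and 1535 to 3213 higher, with 1535 without *DUSP6* siRNA replicate 2 and 1686 without replicate 3. Among the context genes 35 to 48 were lower and 12 to 16 higher. With the limit on the mean at 10, 1639 of all genes and 8 context genes were higher, as fewer genes were tested. *PIP* was at -0.87 with a pseudocount of 0.1 and -0.97 in edgeR. *PGR* was at -0.10 under quantile normalization and at -0.0108 to 0.0915 when 1 library was left out, the lowest being without scrambled siRNA replicate 3. The cause was not tested.

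Libraries with the same replicate number did not deviate together (r = 0.00500, 0.0868 and -0.0764). This gave no sign that the numbers pair the samples, but so few libraries cannot exclude it. With the replicate block, 3096 genes were lower and 2495 higher, and the adjusted p was 4.91e-05 for *FKBP5*, 4.66e-06 for *AZGP1*, 0.0103 for *TMPRSS2* and 0.00429 for *ALCAM*. Not every library had its largest r with its own number. Depth limits only *PIP*, *KLK3* and *HPGD*, and the spread between 3 libraries limits the rest. The call of *TMPRSS2* also depends on the TMM scaling.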
